A study of Mus musculus with 6 samples.

Results

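The genes described here encode the receptors and proximal signalling proteins through which osteoclasts read RANKL, M-CSF and immunoreceptor tyrosine-based activation motif (ITAM) costimulation. They were chosen by symbol as the RANK receptor (Tnfrsf11a), the M-CSF receptor (Csf1r), the RANK adaptor Traf6, the ITAM-coupled receptors Oscar, Trem2 and Siglec15, the ITAM adaptors Fcer1g and Tyrobp, and the downstream effectors Syk and Plcg2, making 10 of the 22601 genes in the deposited count table. All 10 had a row in the table and all 10 passed the filter on low counts, which left 13483 genes for testing.

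RNA was sequenced from samples labelled as osteoclasts of Slc37a2 knockout (KO) mice and wild-type (WT) littermates, with 3 libraries per genotype, to ask how loss of this lysosomal sugar transporter affects osteoclast gene expression. Per the labels, bone marrow macrophages of both genotypes received the same treatment, RANKL at 10 ng/ml with M-CSF at 2 ng/ml for 5 days, whereas the RNA-seq methods of the study describe RNA from whole femurs and tibias. The mice were on the C57BL/6N background, and the KO animals were homozygous for a tm2a gene-trap allele derived from a targeted embryonic stem cell clone. The labels call the libraries biological replicates, and each column heading carries its own animal number, an age of 11 weeks and the letter F. Libraries are named below by genotype and animal number. The totals were 39250356, 27552183 and 31396766 counts in WT K090, L080 and L082, and 29279260, 42522292 and 29663713 counts in KO K089, L078 and L081.

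Levels are given as read counts relative to library size (CPM) scaled by the trimmed mean of M-values (scaled CPM). Slc37a2 itself was at 1860, 2150 and 2440 scaled CPM in WT K090, L080 and L082 and at 45.3, 32.1 and 36.9 in KO K089, L078 and L081. Every KO library was far below every WT library, as labelled, with a log2 fold change of -5.82 (SE 0.20, 95% confidence interval -6.30 to -5.34; adjusted p = 7.07e-04, edgeR quasi-likelihood fit, Benjamini-Hochberg). The KO libraries still held Slc37a2 reads. On the source of the RNA, osteoclast markers summed to between 39900 and 70300 CPM in each library, whereas marrow genes were close to 0, with S100a8 at a mean of 0.546 CPM, Mpo at 0.0153, Cd79a at 0.0574 and Hba-a1 at 0.0112. Stromal and osteoblast genes were present, summing to between 581 and 1850 CPM with Col1a1 at a mean of 538 and Col1a2 at 436. The osteoblast genes of that list differed in level, with Runx2 at 13.2, Sp7 at 2.03, Ibsp at 0.477 and Bglap at 0.0117.

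RANK, on binding RANKL, recruits TRAF6 and so activates NF-kB and MAP kinase signalling, while the M-CSF receptor, a tyrosine kinase, sustains the survival and proliferation of osteoclast precursors. ITAM costimulation runs in parallel: receptors with short cytoplasmic tails pair with the adaptors FcR gamma chain (Fcer1g) or DAP12 (Tyrobp), whose phosphorylated ITAM tyrosines recruit SYK. SYK in turn activates PLCG2, and the calcium signal that follows drives NFATc1, the master transcription factor of osteoclast differentiation.

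No member passed the test for a difference between the genotypes. By edgeR's quasi-likelihood test, 0 of the 10 members had an adjusted p below 0.05, against 0.00742% of all tested genes, and 0 had an unadjusted p below 0.05, against 0.712%. The edgeR likelihood ratio test and the DESeq2 Wald test likewise gave 0 members by either measure. Of all tested genes, each called 2 by adjusted p, and 0.46% and 0.512% respectively had an unadjusted p below 0.05. The genotypes' ranges of scaled CPM failed to overlap for 0 of the 10 members and for 4.31% of all tested genes. Of all tested genes, every KO library was above every WT library in 1.50% and below in 2.81%. The fitted log2 fold change of KO over WT was above 0 for 8 members and below 0 for 2 (Fcer1g and Trem2), with a median of 0.086 against -0.023 over all tested genes, of which 43.8% were higher in KO. The median absolute log2 fold change was 0.13 for the members and 0.10 for all tested genes. For 9 of the 10 members the 95% confidence interval lay within a log2 fold change of 1 in either direction, as it did for 78.6% of all tested genes, and Trem2 was the exception. KO L078 bore on these counts: without it, 6 members had an unadjusted p below 0.05 (0 adjusted) and 6 had genotypes that did not overlap, beside 20.1% and 41.6% of all tested genes.

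**Figure D1:**
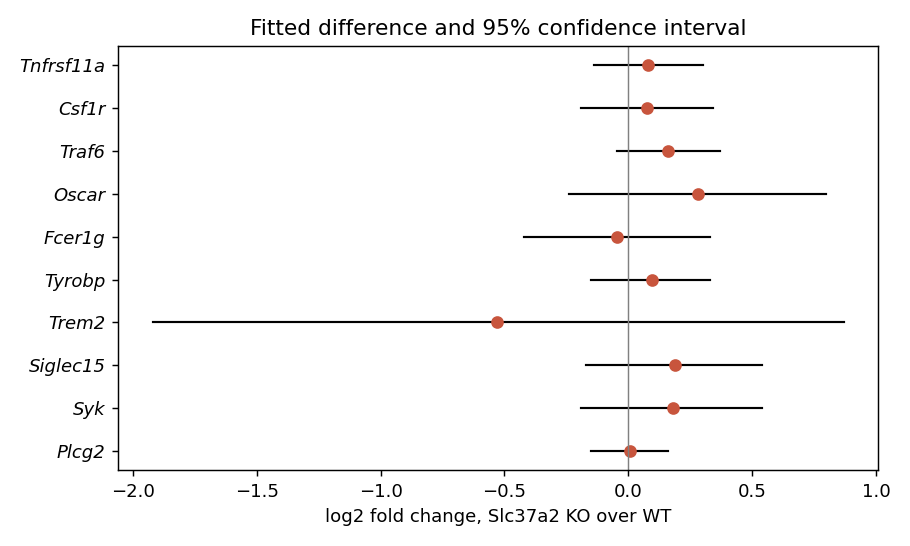
Fitted log2 fold change of KO over WT (points) with its 95% confidence interval (lines) for the 10 members, from 3 libraries per genotype. The interval of every member includes 0, the narrowest being that of Plcg2 (-0.15 to 0.16) and the widest that of Trem2 (-1.92 to 0.87).

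RANK and the M-CSF receptor, the receptors for the cytokines in the medium, had levels that overlapped between the genotypes. Tnfrsf11a was at 247, 250 and 254 scaled CPM in WT K090, L080 and L082 and at 290, 234 and 269 in KO K089, L078 and L081. The WT libraries lay within the range of the KO libraries, of which K089 was highest and L078 lowest. The means were 250 ± 3.57 in WT and 264 ± 28.5 in KO (SD, n = 3 each), a fold of 1.06 with a 95% confidence interval of 0.908 to 1.23 (log2 0.078, SE 0.090; adjusted p = 0.969, edgeR quasi-likelihood fit, Benjamini-Hochberg). Csf1r, the 31st most abundant tested gene by scaled CPM, was at 1760, 1880 and 1850 in WT and at 2100, 1720 and 1970 in KO, in the same library order. Again K089 was highest and L078 lowest, both KO, so that the WT values were enclosed. Its fold was 1.05 (0.879 to 1.26; log2 0.076, SE 0.11; adjusted p = 0.969 by the same edgeR test, Benjamini-Hochberg). Without KO K089 the log2 values were 0.029 for Tnfrsf11a and 0.036 for Csf1r, and without KO L078 they were 0.16 and 0.15. Exons of Csf1r overlap those of Hmgxb3 on the opposite strand by 873 bases, and reads from the overlap cannot be told apart without strand; Hmgxb3 averaged 37.7 scaled CPM.

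The balance of the receptor transcripts was steady from library to library. The Tnfrsf11a to Csf1r count ratio within a library, which does not depend on library size, was 0.140, 0.133 and 0.137 in WT and 0.138, 0.136 and 0.136 in KO. The KO values fell inside the WT range. KO differed from WT by 0.00083 on the log2 scale (two-sided exact permutation test, p = 1; adjusted over 4 ratios, 1), where 3 libraries against 3 cannot give a p below 0.1. Its sign turned without WT L080 (-0.020) or KO K089 (-0.0080). The centred log2 profiles of Tnfrsf11a and Csf1r over the 6 libraries were the closest of any pair of members, at a root-mean-square distance of 0.0248.

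Traf6, the ubiquitin ligase that couples RANK to its kinases, was at 85.5, 90.1 and 89.4 scaled CPM in WT K090, L080 and L082 and at 104, 87.2 and 105 in KO K089, L078 and L081. KO K089 and L081 were above every WT library, and KO L078 lay among the WT values. The fold was 1.12 (95% confidence interval 0.968 to 1.29; log2 0.16, SE 0.086; adjusted p = 0.969, edgeR quasi-likelihood fit, Benjamini-Hochberg), and the log2 value was 0.24 without KO L078.

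The ITAM-coupled receptors Trem2 and Oscar varied most of the members between libraries, and were highest in different libraries. Oscar, a collagen-binding receptor that signals through the FcR gamma chain, was at 202, 274 and 280 scaled CPM in WT K090, L080 and L082 and at 365, 223 and 331 in KO K089, L078 and L081. It was highest in KO K089 and L081 and lowest in WT K090 and KO L078, a 1.81-fold span. The means were 252 ± 43.5 in WT and 306 ± 74.3 in KO (SD, n = 3 each), and the fold of 1.21 had an interval from 0.849 to 1.74 (log2 0.28, SE 0.21; adjusted p = 0.969, edgeR quasi-likelihood fit, Benjamini-Hochberg). The log2 value was 0.14 without WT K090 and 0.46 without KO L078. Siglec15, a sialic acid-binding lectin that signals through DAP12, was at 106, 118 and 126 scaled CPM in WT and at 153, 106 and 138 in KO. The ordering of its extremes matched that of Oscar, with KO K089 and L081 above every WT library and KO L078 level with WT K090. Its fold was 1.14 (0.891 to 1.45; log2 0.19, SE 0.15; adjusted p = 0.969 by edgeR quasi-likelihood fit, Benjamini-Hochberg), and its log2 value was 0.093 without KO K089 and 0.32 without KO L078.

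Trem2, a lipid-sensing receptor of macrophages and osteoclasts that also pairs with DAP12, was at 108, 96.0 and 36.7 scaled CPM in WT K090, L080 and L082 and at 28.0, 99.8 and 38.6 in KO K089, L078 and L081. The libraries fell into a high set of WT K090, WT L080 and KO L078 and a low set of WT L082, KO K089 and KO L081, so that both genotypes were present at both levels. Between its highest and lowest library Trem2 differed 3.84-fold, the widest span of any member. The means were 80.1 ± 38.1 in WT and 55.5 ± 38.8 in KO (SD, n = 3 each), and the fold of 0.695 had a 95% confidence interval of 0.263 to 1.83 (log2 -0.53, SE 0.58; adjusted p = 0.969, edgeR quasi-likelihood fit, Benjamini-Hochberg). Single libraries moved this value: the log2 fold change was -1.27 without KO L078 and -0.19 without KO K089. The lowest Trem2 count was 764, in KO K089.

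The ITAM adaptors were steadier than Trem2. Fcer1g was at 224, 214 and 155 scaled CPM in WT K090, L080 and L082 and at 174, 213 and 187 in KO K089, L078 and L081. The KO values lay inside the WT range, which ran from L082 to K090. Like Trem2, Fcer1g was higher in WT K090, WT L080 and KO L078 than in the other libraries, over a narrower, 1.45-fold span. Its fold was 0.968 (95% confidence interval 0.745 to 1.26; log2 -0.046, SE 0.16; adjusted p = 0.971, edgeR quasi-likelihood fit, Benjamini-Hochberg), and the sign turned without WT K090 (0.053), WT L080 (0.016) or KO K089 (0.040). Tyrobp was at 539, 575 and 464 scaled CPM in WT and at 564, 535 and 585 in KO. WT L082 was the lowest library for both adaptors, and the genotypes overlapped. The fold for Tyrobp was 1.07 (0.904 to 1.26; log2 0.094, SE 0.10; adjusted p = 0.969 by edgeR quasi-likelihood fit, Benjamini-Hochberg), with a log2 value of 0.037 without WT L082 and 0.16 without WT L080.

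The coding sequences of these adaptors show the motif that defines the pathway. An ITAM is a pair of tyrosines, each followed at the third position by leucine or isoleucine, with a short spacer. Every coding gene of the GENCODE M21 annotation (GRCm38, the assembly also called mm10) was searched for this pattern with 6 to 8 residues between the tyrosine units, and it was present in 625 of 22338 genes (2.80%) and in 2 members, Fcer1g (chr1:171229572-171234365, minus strand, 86 residues) and Tyrobp (chr7:30413760-30417585, plus strand, 114 residues). A match describes the sequence and not a working site. The stretches below are coding sequence from the GENCODE M21 transcripts, 45 bases each with 7 residues between the units, with the tyrosine codons in capitals.
Fcer1g: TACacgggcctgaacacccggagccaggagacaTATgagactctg
Tyrobp: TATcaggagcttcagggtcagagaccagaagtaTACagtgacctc

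Ratios of each receptor to its adaptor showed the same library split. The count of Oscar relative to Fcer1g was 0.903, 1.28 and 1.81 in WT K090, L080 and L082 and 2.10, 1.04 and 1.77 in KO K089, L078 and L081. Trem2 relative to Tyrobp was 0.200, 0.167 and 0.0789 in WT and 0.0497, 0.187 and 0.0660 in KO. The first ratio was highest and the second lowest in the same libraries, WT L082, KO K089 and KO L081. Fcer1g itself, the denominator of the first ratio, was lowest in those libraries. These are ratios of counts, not of levels per length, and so describe libraries and not which gene of a pair was the more abundant. For Oscar over Fcer1g KO differed from WT by 0.30 on the log2 scale (two-sided exact permutation test, p = 0.6; adjusted over 4 ratios, 0.933), and this was 0.046 without WT K090, 0.088 without KO K089 and 0.59 without KO L078. For Trem2 over Tyrobp the difference was -0.70 (exact p = 0.3; adjusted 0.933), and -0.32 without KO K089 and -1.27 without KO L078. Siglec15 relative to Tyrobp was 0.196, 0.204 and 0.271 in WT and 0.271, 0.198 and 0.236 in KO. The groups overlapped, and the log2 difference was 0.074 (exact permutation p = 0.7; adjusted 0.933). This difference turned to -0.014 without WT K090 and -0.035 without KO K089, and was 0.22 without WT L082.

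Of the effectors, Syk, the kinase that docks on phosphorylated ITAMs, was at 492, 495 and 564 scaled CPM in WT K090, L080 and L082 and at 657, 461 and 637 in KO K089, L078 and L081. KO K089 and L081 were the highest and KO L078 the lowest of all 6. The fold was 1.13 (95% confidence interval 0.880 to 1.45; log2 0.18, SE 0.15; adjusted p = 0.969, edgeR quasi-likelihood fit, Benjamini-Hochberg), with a log2 value of 0.11 without KO K089 and 0.32 without KO L078. Plcg2, the phospholipase that generates the calcium-mobilising messenger downstream of SYK, was at 176, 163 and 157 in WT and at 166, 164 and 170 in KO. It varied least of the members, with a 1.12-fold span, and the KO values lay inside the WT range. Its fold of 1.01 had the narrowest interval, 0.903 to 1.12 (log2 0.0080, SE 0.064; adjusted p = 0.988 by edgeR quasi-likelihood fit, Benjamini-Hochberg), and the sign turned without WT L080 (-0.0033) or WT L082 (-0.0022).

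**Figure D2:**
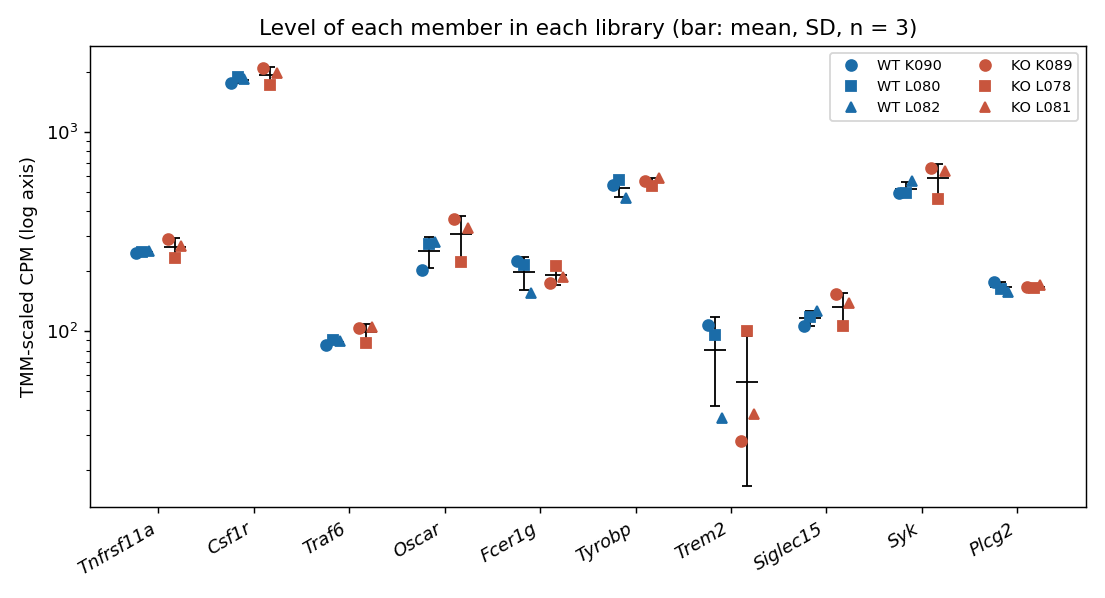
Scaled CPM (log axis) of the 10 members in each library, with the mean and SD of each genotype (n = 3) as bars. Trem2 ranges from 28.0 to 108 with both genotypes at both ends, whereas Plcg2 stays between 157 and 176.

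Levels of different genes were compared as TPM, which divides counts by gene length before scaling to a fixed total, with length taken as the merged exons of each gene, over the 18800 genes (83.2%) with a length. Tyrobp led at a mean of 2890 TPM over the 6 libraries (2450 to 3160), followed by Csf1r at 1150 TPM (1130 to 1200). Neither range touched its neighbour. Fcer1g at 792 TPM (622 to 951), Oscar at 530 TPM (407 to 642) and Siglec15 at 378 TPM (340 to 430) formed a middle group in which each overlapped the next. Syk at 207 TPM (187 to 228) stood apart, then Tnfrsf11a at 152 TPM (148 to 158) and Plcg2 at 137 TPM (126 to 153), which overlapped. Trem2 at 49.9 TPM (18.4 to 80.9) and Traf6 at 41.8 TPM (39.8 to 44.2) were lowest and overlapped. The order rests in part on the length used. With the longest transcript of each gene, Syk (272 TPM) overlapped Siglec15 (285 TPM), Fcer1g (763 TPM) separated from Oscar (403 TPM), Tnfrsf11a (136 TPM) from Plcg2 (103 TPM), and Trem2 (38.8 TPM) came below Traf6 (40.3 TPM), still overlapping it. For Trem2 the merged exons come to 4946 bases and the principal transcript to 1088. With principal transcripts, an alternative chosen after seeing the data that gives a length to 70.1% of genes, Trem2 was at 153 TPM and seventh in order, Syk again overlapped Siglec15, and Fcer1g again separated from Oscar.

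The members' profiles across libraries separated Trem2 from the other receptors. Relative to its own mean over the 6 libraries, log2 Trem2 was at 0.87, 0.71 and -0.68 in WT K090, L080 and L082 and at -1.06, 0.77 and -0.60 in KO K089, L078 and L081. Oscar was at -0.44, 0.0045 and 0.036 in WT and at 0.42, -0.30 and 0.28 in KO. Its sign was opposite to that of Trem2 except in WT L080, but it barely differed between WT L080 and L082. Trem2 and Oscar were the most distant members, with a root-mean-square distance of 1.07, while Siglec15 and Syk were 0.0532 apart. Trem2 was at a distance of 0.633 or more from every other member. Among 8692 genes with a mean of at least 10 scaled CPM, those nearest to Trem2 over the 6 libraries were Tlr2 (distance 0.0392), Ncf1 (0.0539), Alox5ap (0.0608), Lyz2 (0.0681) and P2ry6 (0.0748), where the profile of Trem2 itself had a root-mean-square size of 0.797. Among the nearest to Oscar were Mmp9 (0.0332), Sntb1 (0.0506), Glb1 (0.0509) and Vopp1 (0.0529), against a size of 0.297. Nearest to Siglec15 were Vwa8 (0.0211), Paqr7 (0.0255), Pdgfb (0.0271), Itpr3 (0.0282) and Atp6v1b2 (0.0304), against 0.195.

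**Figure D3:**
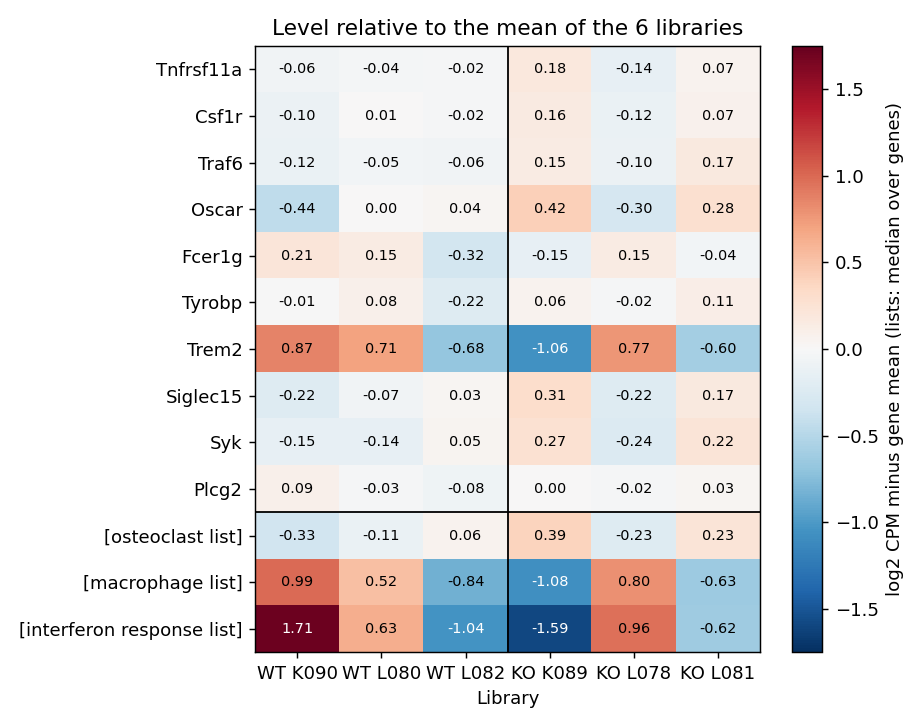
Log2 scaled CPM of each member relative to its mean over the 6 libraries, with the median over the genes of the osteoclast, macrophage and interferon response marker lists in the lower rows. Trem2 and the macrophage list are above 0 in WT K090, WT L080 and KO L078 and below 0 in the other libraries, and Oscar and the osteoclast list are lowest in WT K090 and KO L078.

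Marker lists split the libraries in the same way. So did the first principal component, the largest axis of variation between libraries, with 57.7% of the variance. It was at -24.7, -22.4 and 9.78 in WT K090, L080 and L082 and at 40.1, -34.3 and 31.6 in KO K089, L078 and L081. The 10 osteoclast markers (all 10 in the table) summed to 39900, 52000 and 57300 CPM before scaling in WT K090, L080 and L082 and to 70300, 44400 and 64200 in KO K089, L078 and L081, with Mmp9 the most abundant at 23600. They were thus plentiful in every library of these labelled osteoclasts, and highest where Oscar and Syk were highest. The macrophage markers (11 of 12 in the table, Ly6c2 without a row) summed to 8800, 7960 and 5170 CPM in WT and 5160, 8360 and 5400 in KO, led by Lyz2 at 2610, with Ccr2 nearly absent at 0.749. Csf1r is on that list, and without it, a split made after seeing the data, the sums were 6970, 6020 and 3330 in WT and 3210, 6530 and 3520 in KO. The macrophage list was highest in the libraries where Trem2 was highest. In these bulk samples, fewer cells of a type and less RNA per cell cannot be told apart, and the part of cell composition in the members' levels was not tested. By edgeR's quasi-likelihood test with adjusted p below 0.05, 0 genes of either list were called.

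Other lists followed the split to differing degrees. The 12 interferon response genes summed to 359, 232 and 125 CPM in WT and 106, 269 and 140 in KO. The 10 proliferation genes summed to 1220, 870 and 845 in WT and 543, 1190 and 679 in KO, led by Mki67 at 287. The 10 stromal and osteoblast genes summed to 823, 1210 and 1540 in WT and 638, 1850 and 581 in KO, led by Col1a1 at 538. The interferon genes were thus high in the libraries high for Trem2, while the stromal genes were highest in WT L082 and KO L078, and their part in the members' levels was not tested. Blood lineage markers were low. The dendritic cell list (5 of 7 in the table, without Cd209a and Siglech) reached 29.0 CPM at most, with Itgax the most abundant at 18.5. The neutrophil list (6 of 8, without Ly6g and Elane) reached 1.40 CPM, led by S100a8, and the B lymphoid list (5 of 7, without Ms4a1 and Pax5) reached 2.21 CPM, led by Ighm. The T and NK list (3 of 8, without Cd3e, Cd3d, Cd3g, Nkg7 and Gzma) came to 0.535 CPM at most, led by Lck. The mast cell and basophil list (4 of 6, without Cpa3 and Fcer1a) reached 3.76 CPM, led by Mcpt8, the platelet list (4 of 5, without Gp9) reached 9.43 CPM, led by Pf4, and of the red cell list 1 of 6 genes, Hba-a1, was in the table, at 0.0674 CPM at most.

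The other genes of the pathway were taken from 7 lists that leave the members out. Of their 107 genes, 104 had a row and 99 were tested, and by edgeR's quasi-likelihood test 0 had an adjusted p below 0.05 and 0 an unadjusted p below 0.05, while the likelihood ratio test gave 0 and the DESeq2 Wald test 1 (Itgb3) at the unadjusted level. Over all tested genes the share at that level was 0.46% for the likelihood ratio test and 0.512% for the DESeq2 Wald test. Without KO L078 the unadjusted count was 28, beside 20.1% of all tested genes, and without WT L082 it was 2 (Pik3cd and Cd300lb, named after their values were seen), beside 1.98%. Fitted values were higher in KO for 43 and lower for 56, with a median log2 of -0.024. The genotypes did not overlap for 2 genes, Map3k7 and Trem3, both lower in KO and both named after their values were seen, beside 2.81% of all tested genes in that direction.

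Among the ligand and decoy genes, Csf1 had the highest scaled CPM. The RANKL gene Tnfsf11 had counts of 5, 4 and 28 in WT K090, L080 and L082 and 4, 21 and 6 in KO K089, L078 and L081, too few to test. M-CSF (Csf1) was at 36.3, 96.7 and 114 scaled CPM in WT and 41.2, 95.2 and 27.1 in KO. Both were highest in WT L082, and Csf1 was about equally high in WT L080 and KO L078. The stromal sums were largest in KO L078, WT L082 and WT L080, and their part in these levels was not tested. The log2 fold change of Csf1 was -0.59 (95% confidence interval -1.98 to 0.80). The decoy receptor for RANKL, Tnfrsf11b, had a log2 fold change of -0.18 and Il34, the other ligand of the M-CSF receptor, of -0.15, and all 4 tested genes of the list were lower in KO. Without KO L078, 3 of these 4 genes had an unadjusted p below 0.05 by edgeR's quasi-likelihood test, beside 20.1% of all tested genes.

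Among 19 RANK adaptors and kinases, 11 were higher and 8 lower in KO, with log2 fold changes from -0.18 (Map3k14) to 0.20 (Src) and a median of 0.018. The kinase gene Src was at 416, 450 and 507 scaled CPM in WT and 603, 397 and 579 in KO, with the extremes in the same libraries as for Syk. Sqstm1, the most abundant of this list, had a log2 fold change of 0.018, and Gab2 of 0.19. Among 14 adaptors and regulators of the M-CSF receptor, 6 were higher and 8 lower, from -0.39 (Dok2, 95% confidence interval -1.13 to 0.34) to 0.36 (Socs1, -0.35 to 1.07, at a mean of 0.767 scaled CPM), with Adam17, the sheddase, at -0.21 and the adaptor Grb2 at -0.057.

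Of 14 other ITAM-coupled receptors tested, 13 were lower and 1 (Pira2, named after its value was seen) higher in KO, with a median log2 fold change of -0.42 against -0.023 over all tested genes, and the quasi-likelihood test of edgeR called 0. Without KO L078, 5 of these receptors had an unadjusted p below 0.05 by that test, beside 20.1% of all tested genes. The activating Fc receptor gene Fcgr3, whose product uses the FcR gamma chain, was at 52.3, 50.5 and 14.2 scaled CPM in WT K090, L080 and L082 and 8.59, 45.4 and 12.9 in KO K089, L078 and L081. Clec4d, a C-type lectin, was at 143, 129 and 52.8 in WT and 43.8, 126 and 54.6 in KO. As with Trem2, Fcgr3 and Clec4d were high in WT K090, WT L080 and KO L078 and low elsewhere, as were the macrophage and interferon lists, whose part in these levels was not tested. Pira2 was instead highest in KO K089 and L081, at 40.1 and 37.5. The log2 fold changes were -0.80 for Fcgr3 (-2.58 to 0.99), -0.64 for Fcgr4, -0.63 for Trem3 and -0.53 for Clec4d, of which Trem3 averaged 0.542 scaled CPM. The median centred log2 level of the list was 0.80, 0.55 and -0.58 in WT and -0.69, 0.63 and -0.53 in KO.

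Downstream of the ITAM, 21 tested kinase and signalosome genes had 9 higher and 12 lower in KO, with a median log2 fold change of -0.028. Blnk, an adaptor that assembles PLCG2 with its kinases, was at 95.3, 76.5 and 51.0 scaled CPM in WT K090, L080 and L082 and 40.4, 83.7 and 53.0 in KO K089, L078 and L081. Lat2, a membrane adaptor, was at 189, 172 and 287 in WT and 319, 168 and 306 in KO. Blnk was high in the libraries high for Trem2, and Lat2 in the others. Their log2 fold changes were -0.33 (-1.11 to 0.45) and 0.29 (-0.43 to 1.01), with Itpr1 at -0.26 and Lcp2, the most abundant, at 0.042. Of 15 inhibitory (ITIM) receptors and negative regulators, 5 were higher and 10 lower, with a median of -0.020, including Cd300a (-0.44), Siglece (-0.35), Pecam1 (-0.32, at a mean of 0.362 scaled CPM) and the most abundant, Sirpa (-0.012).

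Targets downstream of the pathway in osteoclasts were higher in KO for 11 of 12 genes, with Fos (-0.11), named after its value was seen, the exception, a median log2 fold change of 0.25 and 0 calls by edgeR's quasi-likelihood test. Over all tested genes 43.8% were higher in KO and the median was -0.023. Without KO L078, 7 of these genes had an unadjusted p below 0.05, beside 20.1% of all tested genes. The median centred log2 level of the macrophage list was 0.99, 0.52 and -0.84 in WT K090, L080 and L082 and -1.08, 0.80 and -0.63 in KO K089, L078 and L081, against -0.33, -0.11 and 0.071 in WT and 0.39, -0.27 and 0.25 in KO for these targets, and its part in their levels was not tested. The protease gene Ctsk was at 7900, 10600 and 14900 scaled CPM in WT K090, L080 and L082 and 19000, 8990 and 17700 in KO K089, L078 and L081, with a log2 fold change of 0.45 (95% confidence interval -0.43 to 1.34). KO K089 and L081 exceeded every WT library, while KO L078 was below WT L080 and L082, as for Oscar. The values for Acp5, Itgb3 and Mmp9 were 0.36 (-0.32 to 1.04), 0.35 (-0.059 to 0.76) and 0.27 (-0.41 to 0.95), and all 10 osteoclast markers given above are also on this list of targets.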

How the data were processed

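The deposited table held whole-number read counts per gene for 6 libraries, made by the authors and not normalized. The submitters' processing notes name bcl2fastq 2.20.0.422, edgeR 3.30.3 and mm10, while aligner and counter were not given in the sources used here. Columns of the authors' own comparison (log2 fold change, log CPM, likelihood ratio, p-value, FDR) and the list of top genes were not used. Counts of all genes were filtered with filterByExpr, scaled by TMM and fitted with edgeR 4.0.16 (glmQLFit, glmQLFTest) in R 4.3.3 with genotype as the only term, and p-values were adjusted by Benjamini-Hochberg over all 13483 tested genes. DESeq2 1.42.0 was an alternative. The code was tested on simulated counts. Means ± SD are over scaled CPM, log2 profiles used a prior count of 2, and within-library ratios used exact permutation tests, two-sided. TPM used GENCODE M21 gene lengths. Figures were drawn with matplotlib 3.10.9 in Python 3.11.15. Besides the members, the text names in each pathway list the 3 tested genes with the largest absolute log2 fold change and the most abundant one, the most abundant gene of each marker list, and for the 3 members most variable across libraries the 5 genes with the nearest profile. Some genes that these rules name are not reported here. Pathway genes outside these rules were named after their values were seen. Members and lists were chosen with earlier results of these data known.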

Additional observations from a re-analysis of the deposited data

How the results depend on the processing

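Members called stayed at 0 under all 14 alternatives (other scalings, filters, tests and fits, a block for the letter opening the animal number, and each library left out), with adjusted p of members from 0.227 (without KO L078) to 1. Of 140 member log2 fold changes under these alternatives, 135 kept their direction and 5 turned, all with a library left out: Fcer1g (0.053 without WT K090, 0.016 without WT L080, 0.040 without KO K089; range -0.17 to 0.053) and Plcg2 (-0.0033 without WT L080, -0.0022 without WT L082; range -0.0033 to 0.057). All genes called numbered 1, and 2 without a filter, by the likelihood ratio test and by the DESeq2 Wald test. Leaving out single libraries, members whose genotypes did not overlap ranged from 0 to 6. There were 6 without KO L078, beside 41.6% of all tested genes, and 1, Plcg2, without WT K090, beside 9.43%. The members' median log2 fold change ranged from 0.066 to 0.16. The log2 difference in the Tnfrsf11a to Csf1r ratio ranged from -0.020 to 0.020, in the Siglec15 to Tyrobp ratio from -0.035 to 0.22, in Oscar to Fcer1g from 0.046 to 0.59 and in Trem2 to Tyrobp from -1.27 to -0.32. These first 2 ratios turned sign within those ranges. The cause of these shifts was not tested. No paired analysis was possible because the count columns carry animal numbers and not the replicate numbers of the labels, and no source used here says which animals share a litter. The block above is for the opening letter only.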
